A study of Mus musculus with 10 samples.

Results

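The kinesin genes described here are the 36 genes of the authors' stage-by-stage expression matrix, which holds 15686 genes, whose symbol is Kif followed by a number and at most 1 letter. The list was split by the textbook function of the proteins into 11 mitotic kinesins, 13 transport kinesins, 6 kinesins of the cilium or centriole and 6 others. A pair of further genes in the count tables has such a symbol but is not in the matrix. Kif12 had 17 counts over all 10 libraries, at most 10 in 1 library, and Kif2b, a spindle microtubule depolymerase, had 2 counts, and neither was tested.

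Kinesins are motor proteins that use ATP to walk along microtubules or to take their ends apart. Mitotic kinesins build the spindle, move and align chromosomes and complete the division of the cell. Their mRNAs are made mainly late in the cell cycle, so that their level in a population can depend on how many of its cells divide. Transport kinesins carry vesicles, endosomes, mitochondria and RNA towards the cell periphery, and several of them are best known from the axons of neurons. In the route from embryonic stem cells to blood, endothelial cells with blood potential lose their adherent shape and bud off as round progenitors.

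Nuclear RNA of a single mouse line, the HM-1 ES cell line, was sequenced at 5 stages of blood differentiation in serum, with 2 libraries per stage that the labels number as replicates 1 and 2 and the study describes as biologically independent. ES were undifferentiated cells kept with LIF. HB were hemangioblast cells, enriched with magnetic beads for the surface receptor FLK1 from embryoid bodies after 3 days. HE1 (KIT+ TIE2+ CD41-) and HE2 (KIT+ TIE2+ CD41+) were successive states of the hemogenic endothelium and HP (KIT+ TIE2- CD41+) were hematopoietic progenitors, all 3 sorted by flow cytometry from FLK1+ cells grown on in blast culture. All cells came from this 1 line, no genotype was compared, and a gate on a few surface proteins can hold several kinds of cell. In such bulk RNA, fewer dividing cells and less mRNA per cell cannot be told apart.

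Each library held between 24920434 and 58782055 counts on genes, of which the 36 kinesin genes took between 0.252% and 0.281%. Levels are given as CPM, the counts of a gene relative to all counts of its library, after scaling the library sizes with TMM. A floor of 3 counts, which covers counting error only, is 0.051 to 0.12 CPM. Marker genes followed the stage labels only in part, with Pou5f1, Nanog, Sox2, Zfp42 and Esrrb summing to 1998 and 1920.4 CPM in the ES libraries, 98.8 and 74.5 in those of HB, 6.31 and 67.0 in those of HE1, 2.86 and 2.19 in those of HE2 and 6.05 and 1.40 in those of HP. HE1 replicate 2 therefore stood apart with a summed level of these ES markers above that of HE1 replicate 1, and its 6 endothelial markers summed to 2037 CPM against 3523 CPM in replicate 1. Kit, the gene of the sort antigen KIT, was at 146 and 73.0 CPM in HE1, against 73.3 and 69.3 in HB and 164 and 173 in ES. In HE2 it was at 230 and 410 CPM and in HP at 363 and 251 CPM. Its level in HE1 replicate 2 was thus near that of HB. Over the kinesin genes the SD of the log2 difference between the 2 libraries of a stage ranged from 0.19 in HB to 0.80 in HE1, the stage with the least agreement.

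All 36 kinesin genes had enough counts to be tested with edgeR's quasi-likelihood F test, and a gene is said here to rise or fall where its Benjamini-Hochberg adjusted p over all 22596 tested genes was below 0.05. Between any of the 5 stages 30 of the 36 differed (83.3%), against 66.7% of all tested genes. The kinesin genes were all taken from the authors' matrix of 15686 genes. The shares of all genes, here and below, also include tested genes outside it, so the 2 sets were not chosen alike. The 6 that did not pass were Kif18b, Kif5b, Kif17, Kif9, Kif27 and Kif28. The count was 10 of 11 mitotic, 11 of 13 transport, 4 of 6 cilium and 5 of 6 other kinesins. The ratio of the highest to the lowest stage mean of a gene had a median of 1.92 in the mitotic class (range 1.31 to 2.85), 2.99 in the transport class (1.21 to 34.8), 2.52 in the cilium class (1.58 to 12.4) and 5.17 in the other class (1.59 to 18.2). These ranges overlapped, included low genes such as Kif17 and Kif27, and were not tested against each other. Most mitotic kinesins shared the stage with the lowest mean. By stage means Kif18b was highest in HE2 and lowest in ES, and the other 10 mitotic kinesins were highest in ES and lowest in HE1, although single HB, HE2 or HP libraries exceeded ES for Kif11, Kif15 and Kif22. The stage with the highest mean of the transport kinesins was ES for 4 genes, HB for 1, HE1 for 5, HE2 for 2 and HP for 1.

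**Figure D1:**
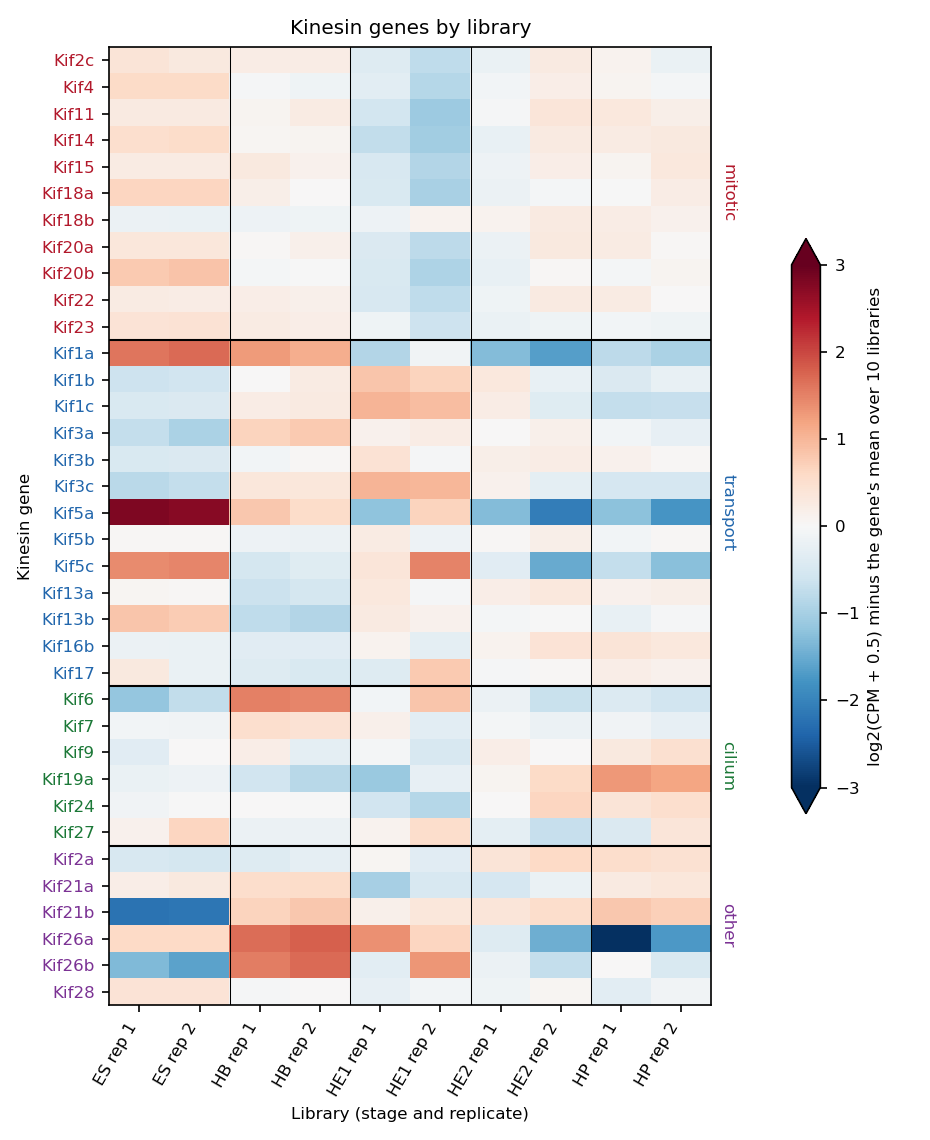
Level of the 36 kinesin genes (rows, grouped by class) in the 10 libraries (columns), drawn as log2(CPM + 0.5) minus the mean of the gene over the libraries, with red above and blue below that mean. All mitotic rows but that of Kif18b are bluest in the HE1 libraries, more so in replicate 2, while Kif1a, Kif5a, Kif21b, Kif26a and Kif26b hold the strongest colours.

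Step by step, 8 kinesin genes rose and 7 fell from ES to HB, where 17.8% of all tested genes rose and 22.6% fell (22.2% and 19.4% of the kinesin genes). From HB to HE1 6 rose and 15 fell (16.7% and 41.7%), against 17.5% and 14.8% of all genes. From HE1 to HE2 9 rose and 7 fell (25.0% and 19.4%), against 6.12% and 7.12%. From HE2 to HP no kinesin gene passed the test in either direction, as was the case for all genes (0%). With HP set against HE1 13 were higher and 6 lower (36.1% and 16.7%), against 11% and 13.9% of all genes, and with HP set against ES 8 were higher and 10 lower (22.2% and 27.8%), against 24.1% and 27.5%. At this threshold the kinesin share was furthest above that of all genes for falls into HE1, for rises and falls from HE1 to HE2 and for rises in HP against HE1, and it was slightly above for rises into HB and for falls in HP against HE1. With the further demand of a 2-fold difference 5 rose and 3 fell from ES to HB (11.5% and 17.3% of all genes), 2 and 2 from HB to HE1 (12.7% and 8.19%), 1 and 6 from HE1 to HE2 (3.26% and 5.39%), 5 and 6 in HP against HE1 (5.35% and 11.2%) and 4 and 4 in HP against ES (16.7% and 21.9%). Under that demand the kinesin share of falls into HE1 and of rises from HE1 to HE2 no longer lay above that of all genes. Comparisons that hold the same stage use the same 2 libraries of it, so a low HE1 value gives a fall into HE1 and a rise out of it at once.

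**Figure D2:**
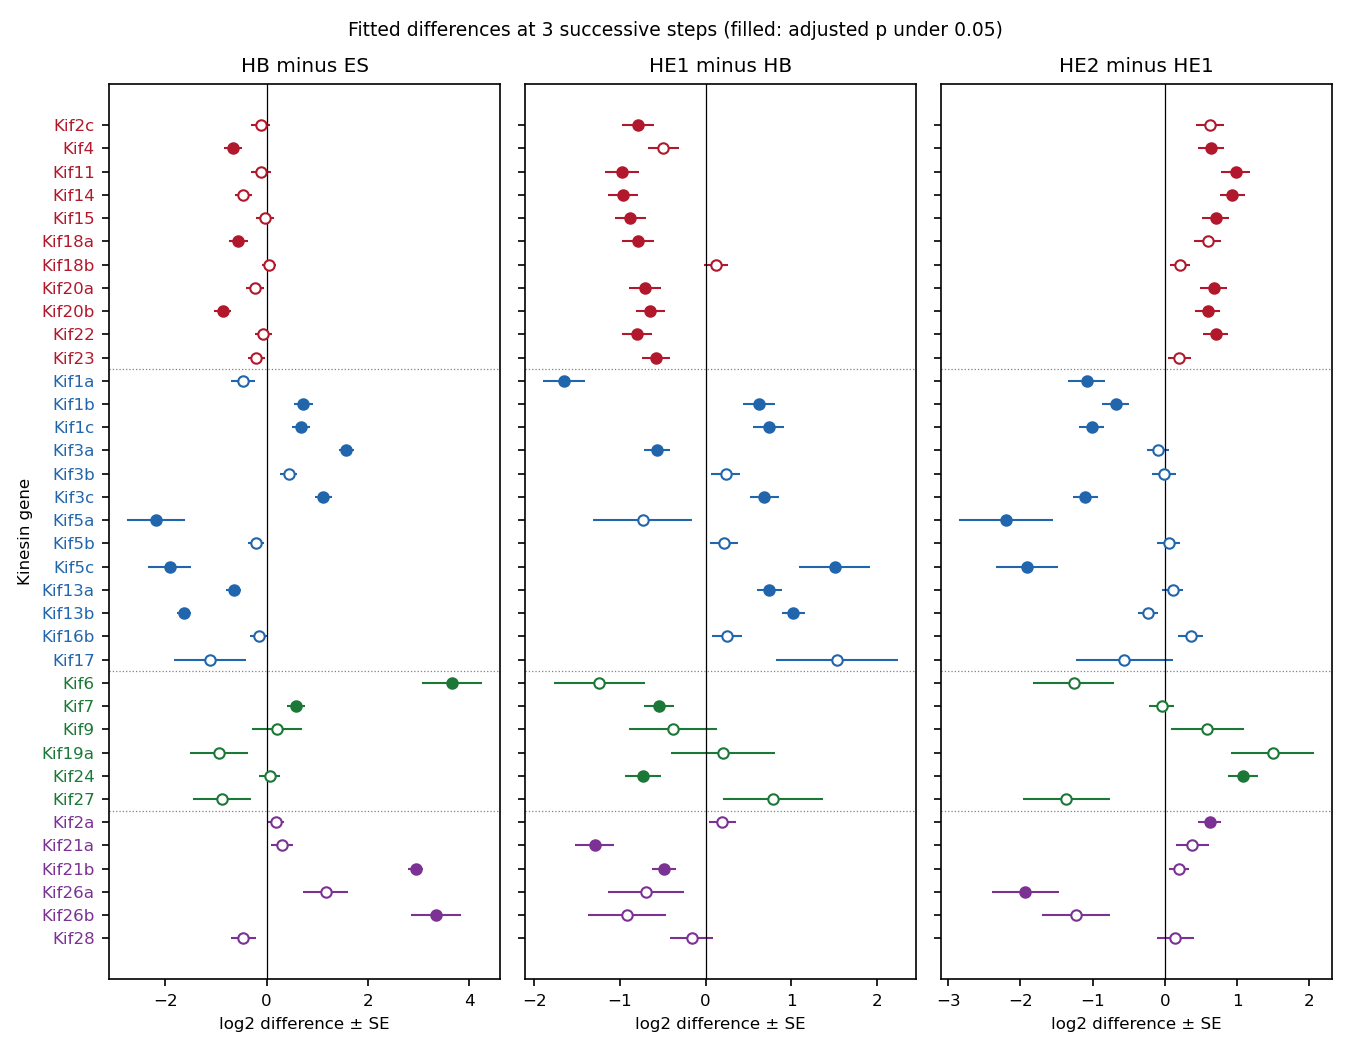
Fitted log2 differences (points) with their SE (bars) of the 36 kinesin genes for HB minus ES, HE1 minus HB and HE2 minus HE1, coloured by class as in the gene names, and filled where the adjusted p was below 0.05. Nearly all mitotic points lie left of 0 in the middle panel and all 11 lie right of 0 in the right panel, which share the HE1 libraries, while the transport points spread to both sides in the first panel.

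Summed over the class, the mitotic kinesins stood at 1622 and 1628 CPM in the ES libraries, 1317 and 1324 in those of HB, 919 and 717 in those of HE1, 1118 and 1411 in those of HE2 and 1351 and 1301 in those of HP. Both HE1 libraries were below every other library, and HE1 replicate 2 was the lowest. The 13 transport kinesins summed to 940.1 and 937 CPM in the ES libraries, 894 and 937 in those of HB, 1318 and 1172 in those of HE1, 994 and 916 in those of HE2 and 795 and 839.7 in those of HP, with both HE1 libraries above every other library. As a share of all kinesin CPM the mitotic class fell from 57.9% and 58.1% in the ES libraries to 34.8% and 31.7% in the HE1 libraries, and the transport class rose from 33.6% and 33.5% to 49.9% and 51.8%. These shares are not divided by length, and each also depends on the sums of the other classes. Most of the rise of the transport sum from HB to HE1 lay in Kif1b, with means of 206 and 317 CPM, and Kif1c, with 147 and 244.5 CPM. The means of Kif1a, Kif3a and Kif5a were lower in HE1 than in HB.

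**Figure D3:**
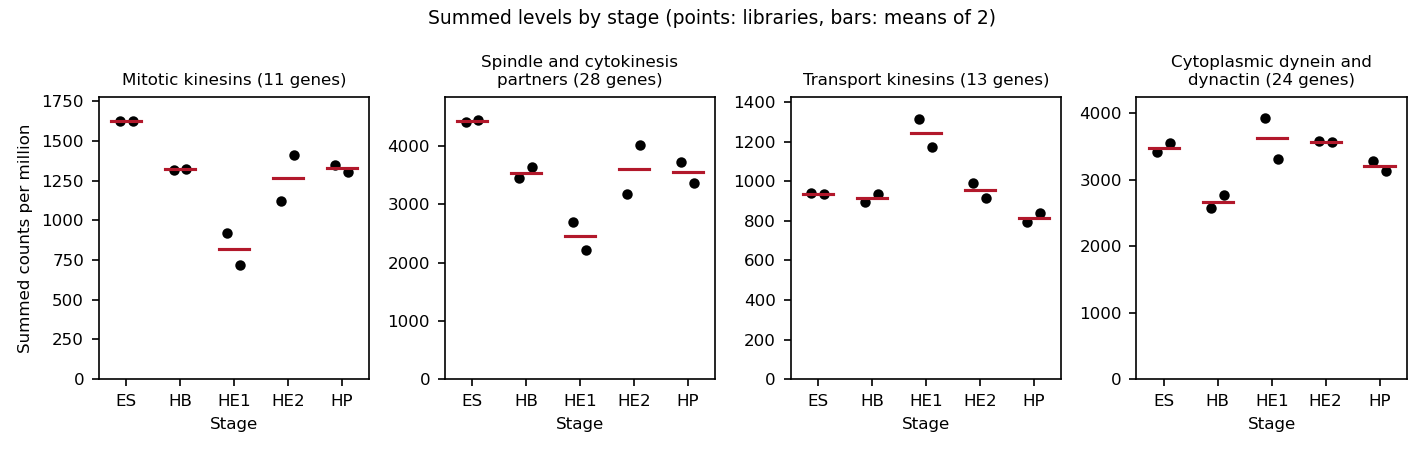
Summed CPM of 4 gene lists at each stage, with each library as a point and the mean of 2 as a bar, all axes starting at 0. The mitotic kinesins and their spindle and cytokinesis partners are lowest in both HE1 libraries, the transport kinesins are highest there, and the sum of the dynein and dynactin genes is lowest in HB, although 6 of these 24 genes rose and 2 fell from ES to HB.

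Levels of different genes can be compared only per length, as CPM divided by the kilobases of exon of the gene. On that scale Kif20a was first in ES at 47.4 ± 0.041 (SD, n = 2), ahead of Kif20b at 38.03 ± 1.1 and Kif5b, the conventional kinesin heavy chain of most cells, at 34.6 ± 0.18, with gaps beyond the spread of the libraries. In HB Kif20a, at 40.4 ± 2.5, stayed above Kif5b, at 29.96 ± 0.067, and Kif11, at 25.3 ± 2.1. In HE1 the transport kinesins Kif5b, at 34.8 ± 6.8, and Kif1c, at 33.6 ± 1.8, led and did not differ beyond their spread, and Kif20a, at 24.7 ± 4.2, Kif18b, at 22.9 ± 3.1, and Kif2a, at 21.1 ± 4.0, followed and could not be ordered. In HE2 Kif20a, at 39.5 ± 9.0, Kif5b, at 36.2 ± 2.7, and Kif2a, at 32.4 ± 3.3, could not be ordered. In HP Kif20a stood at 41.6 ± 4.5, above Kif5b at 33.3 ± 2.0 and Kif2a at 32.5 ± 1.1, which did not differ beyond their spread. At the other end, Kif17 was below 1 CPM on average at every stage, and Kif9 and Kif27 did not exceed a stage mean of 1.37 and 1.24 CPM. Without division by length the long gene Kif1b, whose exons sum to 17809 bases, was first in HE1 in place of sixth.

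The mitotic class begins with the motors that hold the spindle poles apart. Kif11 (Eg5; ENSMUSG00000012443, chr19:37376403-37421859, plus strand, GRCm38) was at 205 and 203 CPM in the ES libraries, 178 and 199.6 in those of HB, 114 and 78.3 in those of HE1, 163 and 217 in those of HE2 and 210.0 and 189 in those of HP. Both HE1 libraries were below the 8 others, which lay between 163 and 217 CPM. Its log2 difference, given for each gene with the SE of the fit, was -0.97 ± 0.20 (SE, adjusted p = 0.00485) from HB to HE1 and 0.98 ± 0.20 (SE, adjusted p = 0.0164) from HE1 to HE2, the largest differences within the class at these steps. Kif15, which can keep a spindle bipolar beside Kif11, followed the same course, at 169 and 167 CPM in the ES libraries, 174 and 155 in those of HB, 102.001 and 76.8 in those of HE1, 128 and 163 in those of HE2 and 150.5 and 177 in those of HP, with -0.88 ± 0.18 (SE, adjusted p = 0.00486) into HE1 and 0.70 ± 0.18 (SE, adjusted p = 0.0344) out of it.

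Among the chromokinesins, which push chromosome arms towards the equator, Kif22 (Kid) fell by 0.80 on the log2 scale into HE1 (adjusted p = 0.00606) and rose by 0.70 into HE2 (adjusted p = 0.0295). Kif4 (ENSMUSG00000034311, chrX:100625737-100727214, plus strand) stood at 145 and 145 CPM in the ES libraries, 94.7 and 88.7 in those of HB, 77.2 and 53.1 in those of HE1, 91.8 and 111 in those of HE2 and 101.7 and 93.2 in those of HP. It was highest in both ES libraries and lowest in both HE1 libraries, and unlike Kif22 it already fell from ES to HB, at -0.66 ± 0.18 (SE, adjusted p = 0.0138). Its further difference of -0.49 ± 0.18 (SE, adjusted p = 0.0597) from HB to HE1 did not pass the test.

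Kif18a, which damps the swings of chromosomes at kinetochore microtubules, was at 60.7 and 60.02 CPM in the ES libraries, 43.3 and 38.5 in those of HB, 28.1 and 19.3 in those of HE1, 34.2 and 37.2 in those of HE2 and 37.96 and 44.9 in those of HP. It fell into HB, at -0.56 ± 0.19 (SE, adjusted p = 0.0331), and again into HE1, at -0.79 ± 0.19 (SE, adjusted p = 0.00999). Its paralog Kif18b (ENSMUSG00000051378, chr11:102905529-102925124, minus strand), which limits the length of astral microtubules, departed from the rest of the class and stood at 73.3 and 71.7 CPM in the ES libraries, 74.5 and 75.9 in those of HB, 74.1 and 89.7 in those of HE1, 89.1 and 101 in those of HE2 and 96.3 and 90.7 in those of HP. Its log2 difference from HB to HE1 was 0.12 ± 0.14 (SE, adjusted p = 0.526), and only HP against ES passed, at 0.37 ± 0.14 (SE, adjusted p = 0.0488), a call that was lost with DESeq2 and when any single ES, HB or HP library was left out. Kif2c (MCAK), the depolymerase of centromeres, fell into HE1, at -0.79 ± 0.19 (SE, adjusted p = 0.011).

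Of the motors of the central spindle and of cytokinesis, Kif20b had the widest range over stages within the class. This gene (MPP1; ENSMUSG00000024795, chr19:34922361-34975745, plus strand) stood at 259 and 269.9 CPM in the ES libraries, 144 and 147 in those of HB, 108 and 78.1 in those of HE1, 128.5 and 152 in those of HE2 and 142 and 157 in those of HP. The ES libraries were far above all others, and the HE1 libraries below all others. It fell into HB, at -0.86 ± 0.17 (SE, adjusted p = 0.00235), and into HE1, at -0.65 ± 0.17 (SE, adjusted p = 0.0159). It rose into HE2, at 0.59 ± 0.17 (SE, adjusted p = 0.0457), and remained below ES in HP at -0.82 ± 0.17 (SE, adjusted p = 0.00221). The rise into HE2 was 0.38 to 0.87 when 1 library was left out, and its call was lost with only the 4 libraries compared. Kif14, a midbody motor, was at 109 and 113 CPM in the ES libraries, 79.4 and 81.8 in those of HB, 45.5 and 37.2 in those of HE1, 66.0 and 92.0 in those of HE2 and 91.4 and 93.8 in those of HP. Here too both HE1 libraries lay lowest, and the rise to HP, 1.16 ± 0.17 (SE, adjusted p = 0.00126), was the largest of the class. Kif20a (MKLP2), which brings the chromosomal passenger complex to the central spindle, fell into HE1, at -0.71 ± 0.19 (SE, adjusted p = 0.0157), and rose into HE2, at 0.68 ± 0.19 (SE, adjusted p = 0.0407). That rise was 0.43 to 0.91 when 1 library was left out, and its call was likewise lost with only the 4 libraries compared. Kif23 (MKLP1), the motor subunit of centralspindlin, fell into HE1, at -0.58 ± 0.16 (SE, adjusted p = 0.0207), but its difference from HE1 to HE2 was 0.20 ± 0.16 (SE, adjusted p = 0.384) and it was still below ES in HP, at -0.53 ± 0.16 (SE, adjusted p = 0.0185), a call lost without any single ES or HP library.

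Counted over the class, 3 of 11 mitotic kinesins fell and none rose from ES to HB, where 22.6% of all genes fell, with a median log2 difference of -0.20 (0 over all tested genes). Only Kif20b passed when any single ES or HB library was left out, and the calls of Kif4 and Kif18a were lost. From HB to HE1 9 of 11 fell and none rose, where 14.8% of all genes fell, with a median of -0.79 (0.04 over all genes), and in 10 of 11 both HE1 libraries were below both HB libraries, which held for 32.6% of all genes. From HE1 to HE2 7 rose and none fell, where 6.12% of all genes rose, with a median of 0.64 (-0.08 over all genes). All 11 differences were positive and in 9 both HE2 libraries were above both HE1 libraries, against 28.8% of all genes. From HE1 to HP 8 rose, where 11% of all genes rose, with a median of 0.74, and all 11 separated, against 28.7% of all genes. None of these falls or rises at HE1 reached 2-fold except those of Kif11 and Kif14 in HP against HE1. The counts rested on single libraries. Without HE1 replicate 2 all 11 differences from HB to HE1 were negative, with a median of -0.54, but 4 passed, and without HB replicate 2 5 passed. From HE1 to HE2 none of the 11 passed without HE1 replicate 2 (median 0.45, 10 of 11 positive) or without HE2 replicate 2 (median 0.49), none passed with only the 4 libraries compared (median 0.63, all 11 positive), and 3 to 5 passed when any single ES, HB or HP library was left out. From HE1 to HP 3 passed without HE1 replicate 2, 4 without HP replicate 1 and 5 without HP replicate 2, with all 11 positive each time. Counting Kif2a as mitotic gave 8 rises from HE1 to HE2 and 9 from HE1 to HP.

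The partners of these motors were listed separately. Of 28 genes of the kinetochore, the spindle checkpoint, the passenger complex and the cytokinetic ring, 2 rose and 8 fell from ES to HB, 17 fell and none rose from HB to HE1 (median log2 difference -0.60, with 14.8% of all genes falling), 16 rose and none fell from HE1 to HE2 (median 0.60, with 6.12% of all genes rising) and 19 rose and none fell from HE1 to HP (median 0.65, with 11% of all genes rising). Bub1, a checkpoint kinase, had the largest fall into HE1 at -1.46, and Spc24, of the NDC80 complex, fell by 1.16 and rose by 0.96. The other subunit of centralspindlin, Racgap1, resembled Kif23, with -0.61 into HE1 and 0.25, which did not pass, into HE2. Ckap2 was the exception in direction, at 0.47 into HE1, which did not pass. Proliferation and DNA replication genes moved along with them. Of 10 proliferation genes 6 fell into HE1 and 6 rose into HE2, and their summed level was 3539 and 3589 CPM in the ES libraries, 2636 and 2728 in those of HB, 2099.9 and 1478 in those of HE1, 2596 and 3417 in those of HE2 and 3184 and 2939 in those of HP. Of 12 S phase genes 10 fell into HE1 and 7 rose into HE2, to be read against the same shares of all genes. Both lists were lowest in HE1 replicate 2 like the mitotic kinesins. How much of the kinesin difference follows the share of dividing cells was not tested.

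Since the mitotic members moved together, the RefSeq promoters of the kinesin genes (GRCm38.p6, 250 bases before to 50 after the start) were searched on both strands for 2 elements known from cell cycle genes. These are the cell cycle genes homology region (CHR), here TTTGAA or TTCGAA, and the CCAAT box, here CCAAT. A promoter was matched for 29 of 36 genes, and the start nearest to the annotated gene start was used. A CHR sequence was present in 9 of 10 mitotic, 0 of 10 transport, 2 of 5 cilium and 1 of 4 other kinesin promoters, against 19.2% of all 32851 promoters. CCAAT was present in 6 of 10, 3 of 10, 3 of 5 and 1 of 4, against 37.4%, and both were present in 6 of 10 mitotic and 0 of 10 transport promoters, against 7.53%. Within 30 bases of the start, a window chosen after the positions were seen, a CHR sequence lay in 7 of 10 mitotic, 0 of 10 transport, 1 of 5 cilium and 1 of 4 other kinesin promoters, against 3.4% of all promoters. Kif18a, which moved with the class, held neither sequence in this window, and Kif18b, which did not, held both. The RefSeq start lay 3867 bases from the annotated gene start for Kif2c, 1505 for Kif14, 11816 for Kif17 and 4175 for Kif27, and these genes are in the counts above. Of these, Kif2c, Kif14 and Kif27 are among the promoters counted with a CHR sequence, and Kif14 and Kif27 among those with both. The stretches from 100 bases before to 30 after the start follow for 6 mitotic kinesins and, for contrast, for the transport kinesins Kif1c and Kif5c, which hold neither. Capitals mark the CHR and CCAAT letters on either strand. Kif11 lies at chr19:37376282-37376411, plus strand, Kif15 at chr9:122950981-122951110, plus strand, Kif22 at chr7:127042391-127042520, minus strand, Kif23 at chr9:61946770-61946899, minus strand, Kif20b at chr19:34922258-34922387, plus strand, Kif18b at chr11:102925095-102925224, minus strand, Kif1c at chr11:70700448-70700577, plus strand and Kif5c at chr2:49619186-49619315, plus strand.
Kif11: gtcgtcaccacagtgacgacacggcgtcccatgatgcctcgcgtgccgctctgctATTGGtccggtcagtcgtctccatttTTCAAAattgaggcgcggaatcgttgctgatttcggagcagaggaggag
Kif15: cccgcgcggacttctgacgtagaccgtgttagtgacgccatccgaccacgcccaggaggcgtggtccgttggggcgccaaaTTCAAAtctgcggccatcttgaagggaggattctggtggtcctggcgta
Kif22: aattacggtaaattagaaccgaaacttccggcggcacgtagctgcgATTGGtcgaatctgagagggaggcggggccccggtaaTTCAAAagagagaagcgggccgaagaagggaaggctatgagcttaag
Kif23: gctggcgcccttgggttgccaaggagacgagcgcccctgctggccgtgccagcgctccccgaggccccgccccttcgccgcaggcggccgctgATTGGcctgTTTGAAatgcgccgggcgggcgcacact
Kif20b: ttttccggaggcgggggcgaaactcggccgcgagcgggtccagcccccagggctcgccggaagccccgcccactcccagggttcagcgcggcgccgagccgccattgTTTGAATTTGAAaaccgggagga
Kif18b: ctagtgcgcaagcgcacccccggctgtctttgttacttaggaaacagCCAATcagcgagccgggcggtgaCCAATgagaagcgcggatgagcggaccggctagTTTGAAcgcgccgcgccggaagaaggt
Kif1c: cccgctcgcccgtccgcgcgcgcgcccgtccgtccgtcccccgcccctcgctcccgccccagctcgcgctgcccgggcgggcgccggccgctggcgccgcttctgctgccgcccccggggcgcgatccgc
Kif5c: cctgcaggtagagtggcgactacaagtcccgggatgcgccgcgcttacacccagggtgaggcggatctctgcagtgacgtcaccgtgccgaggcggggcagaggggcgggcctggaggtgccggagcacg
In Kif11, Kif15 and Kif22 the CHR letters began 19, 19 and 17 bases before the start. In Kif23, Kif18b and Kif20b they began at base 3, base 4 and bases 8 and 14 after it. A match is a description of letters and not of a factor bound there.

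The transport class held the kinesin gene with the widest swing, Kif5a. Among the conventional kinesin heavy chains (kinesin-1), Kif5b showed no difference that passed the test between any stages and stood at 277 and 275 CPM in the ES libraries, 239.5 and 239 in those of HB, 316 and 239 in those of HE1, 274 and 304 in those of HE2 and 255 and 277 in those of HP. The paralogs best known from neurons fell from ES. Kif5a (ENSMUSG00000074657, chr10:127225696-127263348, minus strand) was at 26.3 and 25.2 CPM in the ES libraries, 6.25 and 5.13 in those of HB, 1.18 and 5.58 in those of HE1, 1.07 and 0.413 in those of HE2 and 1.14 and 0.636 in those of HP, so that the ES libraries were far above all others and HE1 replicate 2 was above HE1 replicate 1 and near the HB libraries. It was 4.53-fold lower in HB than in ES, at -2.18 ± 0.58 (SE, adjusted p = 0.0118), and 28.5-fold lower in HP than in ES, at -4.83 ± 0.67 (SE, adjusted p = 0.000168), the largest difference of any kinesin gene. From HE1 to HE2 it fell, at -2.20 ± 0.65 (SE, adjusted p = 0.0497), a call close to the threshold that was lost in 13 alternatives, among them without HE1 replicate 2, where the difference was -0.66. The fall into HB did not pass when either HB library was left out. Kif5c (ENSMUSG00000026764, chr2:49619298-49774778, plus strand) was at 44.2 and 45.7 CPM in the ES libraries, 11.2 and 12.6 in those of HB, 21.1 and 46.6 in those of HE1, 12.7 and 5.37 in those of HE2 and 9.81 and 6.61 in those of HP. It fell from ES to HB, at -1.91 ± 0.42 (SE, adjusted p = 0.00445), rose into HE1, at 1.51 ± 0.42 (SE, adjusted p = 0.0199) and fell into HE2, at -1.91 ± 0.42 (SE, adjusted p = 0.0217). The 2 HE1 libraries differed by more than 2-fold, and without replicate 2 neither of the last calls held, with differences of 0.82 and -1.22. The rise was also lost without either HB library, and the fall also without HE2 replicate 2 and with only the 4 libraries compared.

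The summed level of neuronal markers was also highest in ES, and in HE1 it was higher in replicate 2 than in replicate 1. This HE1 difference lay in Tubb3, and the other neuronal markers together were lower in replicate 2. The sum of 10 neuronal markers was 262 and 256 CPM in the ES libraries, 35.6 and 32.0 in those of HB, 80.0 and 114 in those of HE1, 62.7 and 37.7 in those of HE2 and 40.4 and 44.3 in those of HP, of which Stmn2, at 137 and 130 CPM, made up the largest part in ES and Tubb3, at 29.2 and 73.6 CPM, a large part in HE1. Of the 9 of them that could be tested 6 fell and none rose from ES to HB, and 3 rose and 3 fell from HB to HE1. In HE1 the defining marker Dcx was at 0.0841 and 0 CPM, Rbfox3 at 0.0421 and 0.661 CPM and Elavl3 at 0.210 and 1.057 CPM, with Rbfox3 and Elavl3 higher in replicate 2. The ES markers named above and the cardiac markers, at 20.9 and 80.8 CPM in HE1 for 3 genes summed, were also higher in HE1 replicate 2 than in replicate 1, as Kif5a and Kif5c were. The part of any of these in the kinesin differences was not tested.

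The heterotrimeric kinesin-2 motor, which serves cilia and vesicles, is made of KIF3A with either KIF3B or KIF3C. Its subunits did not move together. Kif3a (ENSMUSG00000018395, chr11:53567379-53601967, plus strand) was at 23.6 and 20.02 CPM in the ES libraries, 62.4 and 68.0 in those of HB, 42.7 and 45.5 in those of HE1, 39.4 and 43.1 in those of HE2 and 36.6 and 32.9 in those of HP, highest in both HB libraries and lowest in both ES libraries. It rose 2.98-fold into HB, at 1.58 ± 0.15 (SE, adjusted p = 2.55e-05), and fell into HE1, at -0.56 ± 0.15 (SE, adjusted p = 0.0157), a call lost without HB replicate 2. Kif3b, its common partner, changed less, at 27.1 and 27.4 CPM in the ES libraries, 35.3 and 38.5 in those of HB, 50.4 and 36.4 in those of HE1, 42.0 and 44.0 in those of HE2 and 40.7 and 38.6 in those of HP, and passed only in HP against ES, at 0.54 ± 0.17 (SE, adjusted p = 0.0203), a call lost without any single ES or HP library. Kif3c (ENSMUSG00000020668, chr12:3365132-3406494, plus strand), the alternative partner, was at 13.2 and 14.2 CPM in the ES libraries, 29.8 and 29.7 in those of HB, 48.2 and 47.6 in those of HE1, 25.7 and 19.0 in those of HE2 and 16.4 and 16.3 in those of HP. Both HE1 libraries were above all others and the ES and HP libraries were lowest. It rose, at 1.12 ± 0.17 (SE, adjusted p = 0.000524) and at 0.69 ± 0.17 (SE, adjusted p = 0.0118) and then fell, at -1.10 ± 0.17 (SE, adjusted p = 0.00502). The fall passed the test in all alternatives tried, and the rise into HE1 did not without either HB library. Exons of Kif3c overlap those of 1110002L01Rik on the opposite strand over 35.3% of their length, and the counting used strand. Kif17, the homodimeric kinesin-2, was at or below 1.29 CPM in every library.

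Kinesin-3 motors carry vesicles, mitochondria and endosomes. Kif1a (ENSMUSG00000014602, chr1:93015464-93101951, minus strand), which moves synaptic vesicle precursors in axons, was at 59.5 and 63.7 CPM in the ES libraries, 47.6 and 41.5 in those of HB, 10.3 and 18.0 in those of HE1, 7.59 and 5.81 in those of HE2 and 11.1 and 9.76 in those of HP. ES and HB libraries were above all others. It fell into HE1, at -1.65 ± 0.25 (SE, adjusted p = 0.000837) and into HE2, at -1.08 ± 0.25 (SE, adjusted p = 0.0246), the second of which did not hold without HE1 replicate 2, without HE2 replicate 2 or with only the 4 libraries compared. Kif1c (ENSMUSG00000020821, chr11:70700548-70731964, plus strand), a carrier of vesicles and mRNA, was at 90.7 and 91.5 CPM in the ES libraries, 144 and 149 in those of HB, 254 and 235 in those of HE1, 145 and 96.7 in those of HE2 and 75.9 and 77.4 in those of HP. Both HE1 libraries were higher than all others and both HP libraries lowest. It rose, at 0.69 ± 0.18 (SE, adjusted p = 0.0106) and 0.74 ± 0.18 (SE, adjusted p = 0.0109), fell, at -1.01 ± 0.18 (SE, adjusted p = 0.00981) and was 3.19-fold lower in HP than in HE1, at -1.67 ± 0.18 (SE, adjusted p = 0.000278). The rise into HB was lost without either ES library or HB replicate 2, the rise into HE1 without either HB library, and the fall into HE2 without HE2 replicate 2 or with only the 4 libraries compared. The difference between HP and HE1 passed in all alternatives, with values of -1.73 to -1.59 when a library was left out. Kif1b, a carrier of mitochondria, also had its highest mean in HE1 and its lowest in ES, with 335 and 299 CPM in HE1 against 122 and 127 CPM in ES and 139 and 162 CPM in HP. Its call in HP against HE1 passed in all alternatives, while that of its fall into HE2 was lost in 11 of 18 and that of its rise into HE1 in 5.

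Kif13b (GAKIN; ENSMUSG00000060012, chr14:64647265-64809617, plus strand), a vesicle motor, was at 126 and 120.1 CPM in the ES libraries, 40.9 and 38.1 in those of HB, 84.2 and 76.4 in those of HE1, 66.8 and 69.7 in those of HE2 and 59.6 and 68.3 in those of HP. It fell 3.11-fold from ES to HB, at -1.64 ± 0.14 (SE, adjusted p = 1.09e-05), and rose 2.03-fold into HE1, at 1.02 ± 0.14 (SE, adjusted p = 0.000403), with both HB libraries below all others. Its paralog Kif13a, which moves endosomes and melanosomes, was likewise lowest in both HB libraries, at 59.4 and 64.7 CPM, with -0.65 into HB and 0.74 into HE1. The first call was lost without ES replicate 1 or HB replicate 1, and the second without HB replicate 1. The endosome motor Kif16b had its highest mean in HP, at 46.8 and 44.0 CPM, and was above ES there, at 0.54 ± 0.17 (SE, adjusted p = 0.0221), a call lost without any single ES or HP library.

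**Figure D4:**
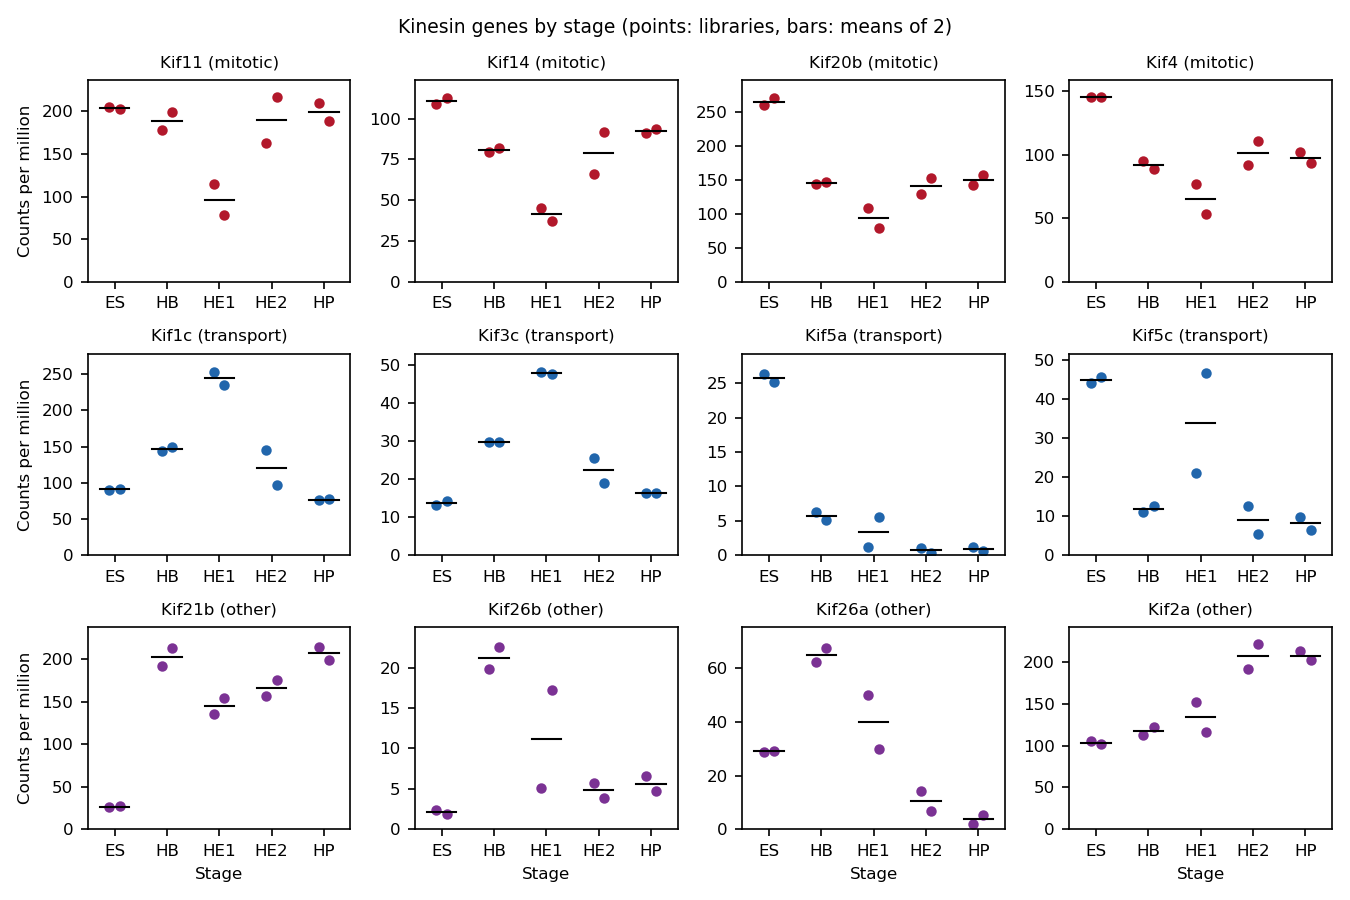
CPM of 12 kinesin genes at the 5 stages, with each library as a point and the mean of 2 as a bar, all axes starting at 0. The 4 mitotic genes dip in HE1, Kif1c and Kif3c peak there, the means of Kif5a and Kif5c are highest in ES with unequal HE1 libraries for both, and Kif21b is low in ES alone.

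Over the class, 4 transport kinesins rose (Kif1b, Kif1c, Kif3a and Kif3c) and 4 fell (Kif13a, Kif13b, Kif5a and Kif5c) from ES to HB, where 17.8% of all genes rose and 22.6% fell. The calls of Kif1b, Kif1c, Kif5a and Kif13a rested on single libraries. With 1 library left out the rise of Kif1b was 0.61 to 0.86. From HB to HE1 6 rose (Kif13a, Kif13b, Kif1b, Kif1c, Kif3c and Kif5c) and 2 fell (Kif1a and Kif3a), with a median log2 difference of 0.63, where 17.5% of all genes rose and 14.8% fell with a median of 0.04. From HE1 to HE2 none rose and 6 fell (Kif1a, Kif1b, Kif1c, Kif3c, Kif5a and Kif5c), with a median of -0.56, where 6.12% of all genes rose and 7.12% fell with a median of -0.08. From HE1 to HP none rose and 5 fell, where 11% of all genes rose and 13.9% fell. Among these 5, the difference of Kif5a was -2.595 to -0.379 and that of Kif5c -2.475 to -1.355 when 1 library was left out. The call of Kif5a was also lost with limma-voom and with only the 4 libraries compared. The rises into HE1 numbered 1 without HB replicate 1 and 2 without HB replicate 2. The falls into HE2 numbered 2 without HE1 replicate 2 and 1 without HE2 replicate 2. The median of -0.56 was -0.31 and -0.42 in these fits and -0.27 with limma-voom. Counting Kif21a and Kif21b as transport gave 4 falls into HE1 and moved the medians to 0.25 into HE1 and -0.23 into HE2.

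Of 16 adaptors and partners of transport kinesins found in the tables, 5 rose and 3 fell into HE1, where 17.5% of all genes rose and 14.8% fell, with a median log2 difference of -0.04 (0.04 over all genes), and none rose and 6 fell into HE2, where 6.12% of all genes rose and 7.12% fell, with a median of -0.32 (-0.08 over all genes). Klc1, a kinesin light chain, rose by 0.79 and fell by 0.82, and Arl8a, a small GTPase that links lysosomes to kinesin-1, rose by 1.19 and fell by 0.58. Klc3, another light chain, and Mapk8ip2, a scaffold bound by light chains, fell at both steps, by 3.07 and 2.13 into HE1 and by 1.89 and 2.08 into HE2. Kifap3, the third subunit of the heterotrimeric motor, did not pass the test at any of these steps. The opposite motor was also listed. Of 24 dynein and dynactin genes 6 rose and 2 fell from ES to HB, 9 rose and none fell from HB to HE1, and 1 rose and none fell from HE1 to HE2, beside the shares of all genes given above.

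Among the kinesins of the cilium, Kif6, of motile cilia, was at 0.195 and 0.430 CPM in the ES libraries, 3.97 and 3.77 in those of HB, 0.967 and 2.28 in those of HE1, 0.884 and 0.476 in those of HE2 and 0.662 and 0.540 in those of HP. Both HB libraries were above all others and the rise from ES was 3.66 ± 0.60 (SE, adjusted p = 0.000774), at low levels throughout, with 3.17 to 4.30 when 1 library was left out. Kif7, which organizes the tip of the primary cilium in Hedgehog signalling, rose into HB, at 0.57 ± 0.18 (SE, adjusted p = 0.0242) and fell into HE1, at -0.54 ± 0.18 (SE, adjusted p = 0.0389), at 36.2 and 34.6 CPM in HB and between 20.4 and 28.2 CPM in all other libraries. The rise was lost without any single ES or HB library, and the fall in 7 alternatives, among them without any single ES or HB library and without HE1 replicate 2, where it was -0.32. The intraflagellar transport genes, which build the cilium, were counted beside it. From ES to HB 12 of 21 rose and 2 fell, with a median log2 difference of 0.73, where 17.8% of all genes rose and 22.6% fell. From HB to HE1 1 rose and 9 fell, with a median of -0.45, where 17.5% of all genes rose and 14.8% fell. Kif24 (ENSMUSG00000028438, chr4:41390745-41464887, minus strand), a centriolar depolymerase that holds back cilium assembly in cycling cells, was lowest in both HE1 libraries, as most mitotic kinesins were. It was at 25.5 and 27.3 CPM in the ES libraries, 27.6 and 27.3 in those of HB, 18.2 and 14.9 in those of HE1, 27.4 and 42.7 in those of HE2 and 35.9 and 38.7 in those of HP, fell into HE1, at -0.73 ± 0.21 (SE, adjusted p = 0.0235) and rose into HE2, at 1.08 ± 0.21 (SE, adjusted p = 0.0143) and in HP above HE1, at 1.17 ± 0.21 (SE, adjusted p = 0.00333). The first call was lost without either HB library or HE1 replicate 2, and the second without HE1 replicate 2, without HE2 replicate 2 or with only the 4 libraries compared. Kif19a, which shortens motile cilia, was at 0.834 and 0.889 CPM in the ES libraries, 0.529 and 0.366 in those of HB, 0.210 and 0.793 in those of HE1, 1.13 and 1.78 in those of HE2 and 3.31 and 2.99 in those of HP, with both HP libraries above all others. It was 6.09-fold higher in HP than in HE1, at 2.61 ± 0.58 (SE, adjusted p = 0.00917), a difference that was 2.01 without HE1 replicate 1 and 3.88 without HE1 replicate 2. Kif9 and Kif27 stayed between 0.317 and 1.55 CPM in every library and did not pass the test in any comparison.

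Outside these classes, Kif21b and Kif26b rose strongly at the first step. Kif21b (ENSMUSG00000041642, chr1:136131389-136177998, plus strand), which restrains microtubule growth and is known from neurons and lymphocytes, was at 25.8 and 26.9 CPM in the ES libraries, 193 and 213 in those of HB, 136 and 154 in those of HE1, 157 and 175 in those of HE2 and 215 and 199 in those of HP. It was low in both ES libraries and high in all others. It rose 7.71-fold into HB, at 2.95 ± 0.15 (SE, adjusted p = 6.96e-07), and remained 7.87-fold above ES in HP. From HB to HE1 Kif21b fell, at -0.48 ± 0.14 (SE, adjusted p = 0.0226), and in HP it was above HE1, at 0.51 ± 0.14 (SE, adjusted p = 0.0221), and each of these calls was lost in 3 alternatives, among them without HE1 replicate 1. Its paralog Kif21a moved the same way at these steps and was at 14.6 and 15.4 CPM in the ES libraries, 18.2 and 18.8 in those of HB, 6.10 and 8.95 in those of HE1, 8.74 and 10.9 in those of HE2 and 15.2 and 16.1 in those of HP, with a difference into HE1 of -1.29 ± 0.22 (SE, adjusted p = 0.00194) and a return in HP, above HE1, at 1.05 ± 0.22 (SE, adjusted p = 0.00754). 

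The atypical kinesins Kif26a and Kif26b, which bind microtubules without moving along them, both had their highest mean in HB. Kif26b (ENSMUSG00000026494, chr1:178529125-178939200, plus strand), known from kidney and limb mesenchyme, was at 2.31 and 1.84 CPM in the ES libraries, 19.9 and 22.5 in those of HB, 5.13 and 17.3 in those of HE1, 5.76 and 3.81 in those of HE2 and 6.59 and 4.67 in those of HP. It rose 10.2-fold into HB, at 3.35 ± 0.50 (SE, adjusted p = 0.000451). HE1 replicate 2 was near the HB libraries and replicate 1 near HE2, and no difference into or out of HE1 passed the test. Kif26a (ENSMUSG00000021294, chr12:112146208-112181747, plus strand) was at 28.9 and 29.2 CPM in the ES libraries, 62.3 and 67.7 in those of HB, 50.3 and 29.9 in those of HE1, 14.4 and 6.63 in those of HE2 and 1.76 and 5.40 in those of HP, above every later library in HB and below every earlier library in HP. It fell from HE1 to HE2, at -1.93 ± 0.46 (SE, adjusted p = 0.0276), which did not pass without either HE1 library or HE2 replicate 2, and was 11.4-fold lower in HP than in HE1, at -3.51 ± 0.50 (SE, adjusted p = 0.00105). That difference was -4.49 without HP replicate 2 and -2.88 without HP replicate 1. The stroma markers Acta2, Col1a1 and Pdgfrb summed to 64.1 and 73.7 CPM in the ES libraries, 81.3 and 81.0 in those of HB, 603 and 1278 in those of HE1, 745 and 506 in those of HE2 and 948 and 462 in those of HP. They were higher in HE1 replicate 2 than in replicate 1, as Kif26b was, but low in HB, where Kif26b was highest, and their part in its level was not tested.

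Kif2a (ENSMUSG00000021693, chr13:106958996-107022126, minus strand), a depolymerase of spindle poles and of neurons, rose over the series, at 106 and 101 CPM in the ES libraries, 113 and 122 in those of HB, 153 and 117 in those of HE1, 192 and 222 in those of HE2 and 213 and 203 in those of HP. The HE2 and HP libraries were all above the ES, HB and HE1 libraries. Its rise was 0.62 ± 0.16 (SE, adjusted p = 0.0334) from HE1 to HE2, lost in 6 alternatives, among them without HE1 replicate 2 or HE2 replicate 2, and 1.00 ± 0.16 (SE, adjusted p = 0.000411) from ES to HP. Unlike 10 of the 11 mitotic kinesins it was not lowest in HE1. Kif28, a little studied kinesin, was between 4.43 and 7.66 CPM. Although it did not pass the test over all stages, it was lower in HP than in ES, at -0.67 ± 0.25 (SE, adjusted p = 0.0424), a call lost in 10 of 18 alternatives. It shares 155 exon bases (4.36% of its exons) with Ahctf1 on the same strand, so that part of its counts may belong to that gene.

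Between HE2 and HP no kinesin gene passed with edgeR's quasi-likelihood test as used throughout or with limma-voom. At an unadjusted p below 0.05 3 were higher and 3 lower with edgeR, against 2.97% and 4.93% of all genes, and 4 and 3 with limma-voom, against 3.58% and 4.49%. With DESeq2 none was higher and 2 were lower, against 0.935% and 1.89% of all genes, with edgeR and no filter on low counts none was higher and 2 were lower, against 0.538% and 1.63%, and without HE2 replicate 2 1 was lower. The smallest adjusted p was that of Kif1c, at -0.66 ± 0.18 (SE, adjusted p = 0.225), followed by Kif26a, at -1.58 ± 0.48 (SE, adjusted p = 0.298). The median log2 difference of the mitotic kinesins was 0.07 and that of the transport kinesins -0.12.

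The kinesins whose symbols do not match the rule were read beside them. Kifc1, a minus-end motor of the spindle, Kifc2, Kifc3 and Kifc5b fell from ES to HB, by 0.66, 0.85, 1.89 and 0.55 on the log2 scale. Kifc3, a motor of cell junctions and vesicles, then rose by 1.40 into HE1 and fell by 1.11 into HE2, and Kifc2 fell by a further 1.08 into HE1. Kifc1 and Kifc5b are near-identical copies, so the counts may be split between them. Cenpe, the kinetochore motor, had a log2 difference of -0.36 into HE1, which did not pass, and rose by 0.66 into HE2.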

How the data were processed

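Nuclear RNA depleted of ribosomal RNA was sequenced as stranded paired-end libraries. The deposited count tables, 1 per library, hold fragment counts that the authors made by aligning trimmed reads to GRCm38 with HISAT2 and counting over Ensembl release 102 genes with featureCounts, stranded, with a fragment on several overlapping genes counted on each. The authors' matrix of stage means, deposited as normalized CPM and treated here as a score because its filter was not stated in the sources used here, served to choose the 36 genes and for 1 alternative. Counts were fitted with edgeR's quasi-likelihood model on all 10 libraries with stage as the only term, TMM scaling and filterByExpr, which left 22596 of 55487 genes and 5 residual degrees of freedom. Benjamini-Hochberg adjustment ran over the whole tested table, and SE is the fitted difference divided by the square root of F. With 2 libraries per stage from 1 cell line, p-values measure the spread between these samples, and each stage's spread rests on few libraries. Alternatives were DESeq2 1.42.0, limma-voom (limma 3.58.1), other scalings, no filter, a replicate block, only the libraries compared, a 2-fold demand and leaving out each library. The fits used R 4.3.3 and edgeR 4.0.16 and were tested on simulated counts. All members are named. Values in every library are given for the members of each class with the smallest p over the stages (up to 6 mitotic, 6 transport, 3 cilium and 4 other) and for the 2 largest rises and 2 largest falls past the test at each successive step, and those of further members were added after their values were seen. The members, their classes and the partner and marker lists were chosen with earlier results of these data known. Promoter sequences are those of RefSeq.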

Additional observations from a re-analysis of the deposited data

How the results depend on the processing

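Of the 89 kinesin differences that passed the test over the 6 comparisons, none changed sign in any alternative run and 55 lost their call in at least 1. Of the 127 that did not pass, 44 changed sign in an alternative and 31 gained a call. With a 2-fold demand 5 kinesin genes were higher and 3 lower in HB against ES, 2 and 2 in HE1 against HB, 1 and 6 in HE2 against HE1, 5 and 6 in HP against HE1, and 4 and 4 in HP against ES. With only the 4 libraries compared, HE2 against HE1 gave 0 higher and 2 lower, while HB against ES gave 12 higher and 10 lower, and the cause was not tested. In HP against HE2 2 were lower with DESeq2 and 2 with no filter on low counts, and the cause was not tested. Leaving out 1 library gave 5 to 9 higher and 3 to 9 lower in HB against ES, 1 to 6 and 7 to 15 in HE1 against HB, 0 to 13 and 1 to 7 in HE2 against HE1, 0 to 0 and 0 to 1 in HP against HE2, 7 to 15 and 4 to 9 in HP against HE1, and 2 to 9 and 6 to 10 in HP against ES. Among the 44 that changed sign were the differences of Kif18b in HE1 against HB (-0.018 to 0.21 without 1 library), Kif5b in the same comparison (-0.0435 to 0.41), Kif23 in HE2 against HE1 (-0.0273 to 0.49) and Kif5b there (-0.13 to 0.30), the last also at -0.0278 with total counts, at -0.0304 without the 20 genes with the most counts and at -0.0233 with only the genes of the matrix. Library scaling without those 20 genes moved the median of all genes in HE2 against HE1 from -0.08 to -0.17. Same-numbered libraries did not deviate together throughout (r from -0.32 to 0.21 over genes between pairs of stages), so the numbers give no pairing. The value was 0.21 for HB with HE2 and 0.13 for HE1 with HP. It lay between -0.32 and -0.18 for the other pairs among HB, HE1, HE2 and HP. Whether libraries with different numbers share a culture was not tested, and the model with stage alone takes no account of it. With the replicate number as a block 4 kinesin genes were higher in HE2 against HE1 in place of 9, and 3 mitotic kinesins in place of 7. How depth limits the calls of genes near 1 CPM, such as Kif9, Kif17 and Kif27, was not tested.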
